A study of Rattus norvegicus with 2 samples.

Results

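The enzymes described here are the liver's conjugation enzymes of 3 classes, the glutathione transferases, the glucuronosyltransferases and the sulfotransferases. Their members were chosen by gene symbol alone: every library spot, in both array tables, named as a cytosolic (Gsta to Gstz) or microsomal (Mgst) glutathione transferase, a Ugt or a Sult. The rule found 39 genes, each with 1 spot, of 21766 library spots that name 17202 genes: 21 glutathione transferases, 7 glucuronosyltransferases and 11 sulfotransferases. The tested liver RNA came from adult male rats of the Wistar strain, in which streptozotocin (65 mg/kg), which kills insulin-producing cells, had induced diabetes, and which were given γ-conglutin, a protein of lupin seed, at 120 mg/kg for 7 days. The RNA it was set against came from streptozotocin-diabetic rats given only the vehicle, 0.9% NaCl, for the same 7 days. The rats had fasted for 12 h before the streptozotocin, diabetes was defined as a glycaemia above 200 mg/dl at 72 h, and rats without diabetes were not part of the comparison. Each pool combined the RNA of 5 rats, and the pair of pools was hybridised to 2 arrays: array 1 with γ-conglutin in Alexa647 and vehicle in Alexa555, array 2 with the dyes exchanged.

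Conjugation makes foreign and endogenous molecules more soluble, so that they leave the cell in bile or blood. Glutathione transferases join electrophiles to the tripeptide glutathione, glucuronosyltransferases attach glucuronic acid from UDP-glucuronate, and sulfotransferases move a sulfonate group from the donor PAPS to phenols, steroids and amines. The liver is rich in all of these activities, and many of the genes are known targets of the receptors and stress factors that sense drugs, bile acids and oxidants.

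Each pool was 1 sample, and the arrays were technical repeats. A difference between pools has no replicate check over rats, no p-value was computed, and the SD given is over the 2 arrays (n = 2), so a probe's dye difference enters it. After filtering, 21702 probes remained, with all 39 members among them. Ratios are γ-conglutin over vehicle throughout. Over all 21702 probes, which are not independent replicates, arrays 1 and 2 correlated at r = -0.44: a probe brighter in 1 dye tended to be brighter in that dye on both slides. In the tables the channel names agree in pool and dye with the sample labels, and a mislabelled array was not tested for. The array is of mouse design. The direction of every ratio below rests on the dye labels, and its gene on the name of a mouse probe.

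The names themselves could be checked only in part, and the files do not settle that each symbol belongs to its spot: every gene value below is that of the spot listed under this name. Over the 1024 symbols carried by several probes, the mean log2 ratios of the 2 brightest probes had an r of 0.04 and their log2 intensities an r of 0.08, and no member symbol had a second probe. All 14 hepatocyte marker probes lay above the 95th percentile of empty spots in both channels of both arrays, but so did 4 of 4 pancreas markers, 6 of 6 cholangiocyte markers, 6 of 6 macrophage markers, 3 of 5 endothelial, 5 of 7 stellate cell and 3 of 5 erythroid markers. Across all probes the share was 94.3%, so signal above empty spots did not separate liver genes from others. Each marker gene is read here from its brightest probe. The median log2 intensity was 11.13 for the hepatocyte markers, against 12.04 for pancreas and 11.68 for stellate cell markers. It was 9.96, 9.95, 9.40 and 7.71 for the cholangiocyte, macrophage, erythroid and endothelial markers. Over all probes it was 10.50, and over the 39 members 10.06. The hepatocyte markers had a median log2 ratio of 0.01. With bulk RNA, fewer cells of a type and less RNA per cell cannot be told apart.

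No conjugation enzyme probe was changed by 1.5-fold in the same direction on both arrays: higher and lower, the counts were 0 and 0 of 39, against 0% and 0% of all probes. With the members still at 0 and 0, the counts over all probes were 33 higher and 24 lower with plain background subtraction, 32 and 21 with the deposited net intensities, and 25 and 19 in the series matrix values. In the main setting, none of the members reached 1.5-fold on array 1 or array 2 alone, where 0.977% and 3.01% of all probes did. At a lower threshold, with both arrays past a log2 ratio of 0.32 on 1 side of 0, the counts were again 0 higher and 0 lower, against 0.00461% and 0.304% of all probes. Mean log2 ratios over both arrays ran from -0.25 (Ugt1a6a) to 0.18 (Sult3a1), and 17 of the 39 were above 0, against 53% of all probes. Were the pools of array 2 exchanged, which was not tested, the means of Ugt1a6a and Sult3a1 would be -0.04 and -0.16, and the extremes Gsta1 at -0.30 and Gsta3 at 0.34. The median was -0.0052, against 0.0066 over all probes, and the SD of the means across members was 0.09, against 0.12. The same sign on both arrays was seen in 11 of 39 members, 3 above 0 and 8 below 0, where 32.7% of all probes had one sign, 16.6% above 0 and 16.1% below 0.

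**Figure D1:**
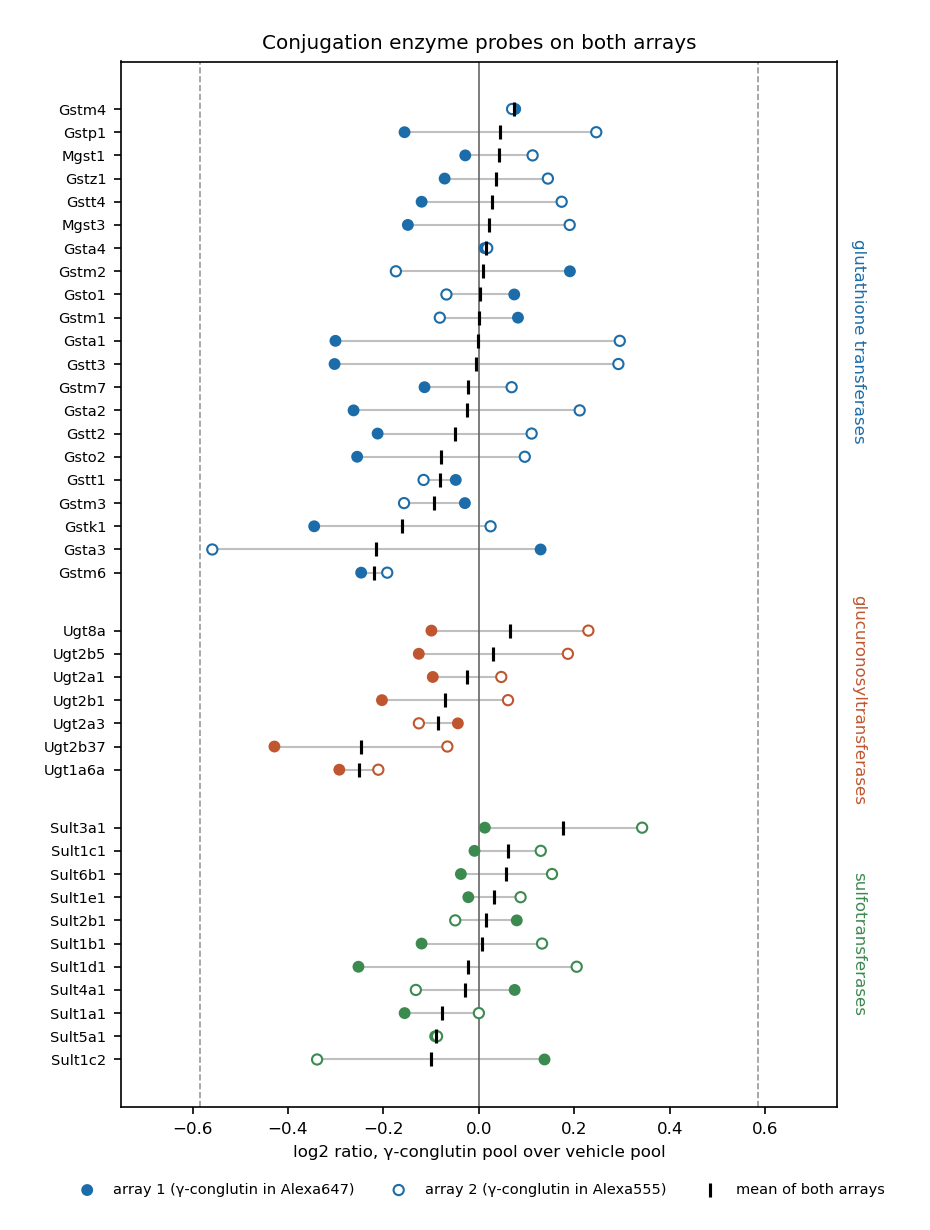
Log2 ratio, γ-conglutin over vehicle (x axis), for each of the 39 probes (rows, by class and mean), with array 1 as filled points, array 2 as open points and the mean as a bar. Dashed lines mark 1.5-fold, which no point reaches, and for 28 of the 39 the points of both arrays lie on opposite sides of 0.

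Among the cytosolic glutathione transferases the lowest mean was that of Gstm6 (NM_008184), of the mu family, whose members detoxify epoxides and other electrophiles. Gstm6 had normalised log2 intensities of 11.40 and 11.58 in the γ-conglutin pool on arrays 1 and 2, against 11.65 and 11.78 in the vehicle pool. Both γ-conglutin values lay below both vehicle values. Here and below, overlap or separation of the pools across arrays also depends on the shift between slides. The ratio within each array is the paired value. The log2 ratios were -0.25 and -0.19, a mean of -0.22 ± 0.04 or 0.859-fold, and the mean was between -0.22 and -0.20 over the 6 background and normalization settings. Gstm6 had the lowest mean of the mu family, and its family members did not follow it as a group: Gstm4 had 0.08 and 0.07 on arrays 1 and 2, Gstm3 -0.03 and -0.16, Gstm7 -0.11 and 0.07, and Gstm1 0.08 and -0.08. The median of the 5 mu probes above empty spots was -0.02. For Gstm4 (AK003418), with the highest mean of the class, the intensities were 10.58 and 10.74 in the γ-conglutin pool, against 10.50 and 10.67 in the vehicle pool. The pools overlapped across arrays, and the mean ratio was 0.07 ± 0.0047.

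Gstm2 gave no usable ratio. Its signal over background was 6.45 and 2.91 intensity units in the γ-conglutin pool and 3.18 and 3.82 in the vehicle pool, while the 95th percentile of empty spots ran from 30.1 to 52.2. It lay below that percentile in all 4 channels, and the other 38 members lay above it in all 4.

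The alpha family holds the main glutathione transferases of hepatocytes, and Gsta4 is known for conjugating hydroxynonenal, a product of lipid peroxidation. Gsta4 (NM_010357) had log2 intensities of 11.64 and 11.61 in the γ-conglutin pool, against 11.63 and 11.59 in the vehicle pool, and ratios of 0.01 and 0.02. Its pools overlapped across arrays, and its mean ratio was nearer 0 than that of any other member whose sign was the same on both arrays. Gsta3 (NM_010356) showed the widest disagreement between arrays. Its intensities were 10.34 and 9.86 in the γ-conglutin pool and 10.22 and 10.42 in the vehicle pool, so that the ratio was 0.13 on array 1 and -0.56 on array 2, with a mean of -0.21 ± 0.49. The value on array 2 is the member ratio farthest from 0. In Gsta1 the arrays opposed each other almost evenly, with -0.30 and 0.29 and a mean of -0.0028 ± 0.42, and in Gsta2 they gave -0.26 and 0.21.

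Of the theta family, Gstt1 was below 0 on both arrays, with -0.05 and -0.12 and a mean of -0.08 ± 0.05. Its intensities were 10.66 and 10.36 in the γ-conglutin pool, against 10.71 and 10.47 in the vehicle pool, so the pools overlapped across arrays. Gstt3 had -0.30 and 0.29, Gstt2 -0.21 and 0.11, and Gstt4 -0.12 and 0.17. Gstp1, the pi class enzyme that marks preneoplastic foci in rat liver, had -0.16 and 0.25 (mean 0.04 ± 0.28). Gstz1, which isomerises maleylacetoacetate in tyrosine breakdown, had -0.07 and 0.14, and the omega enzymes Gsto1 and Gsto2, which reduce dehydroascorbate, had 0.07 and -0.07, and -0.26 and 0.10. Gstk1, of mitochondria and peroxisomes, had -0.35 and 0.02 (mean -0.16 ± 0.26). The microsomal enzymes Mgst1 (mean 0.04 ± 0.10) and Mgst3 (0.02 ± 0.24) are membrane proteins of another protein family, and both had a negative ratio on array 1 and a positive one on array 2. Over the 21 glutathione transferases the median was -0.0028, with 9 means above 0, and without Gstm2 it was -0.0040, with 8.

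Glutathione transferase genes are textbook targets of the antioxidant response element, which binds the stress factor Nrf2. The window from 250 bases before to 50 bases after the gene start was therefore searched in RefSeq's rat genome (GRCr8) for the core TGACNNNGC on both strands. By symbol, 34 of the 39 members matched a rat gene and 2 more matched through an older rat symbol. A shared symbol is not proof that mouse and rat genes correspond. A window was given for 32, and 6 of them held the core, against 12.1% of 33469 rat windows of this length. All 6 were of the glutathione transferases, the largest class: Gsta1, Gsta2, Gsta3, Gstm7, Gstp1 and Gstz1. Their mean log2 ratios ran from -0.21 (Gsta3) to 0.04 (Gstp1), and the arrays opposed each other in sign for every one of the 6. Opposite signs were the common case: 16 of 21 glutathione transferases, 28 of 39 members and 14603 of 21702 probes had them. The core of the xenobiotic response element, GCGTG on either strand, was in 7 of the 32 windows, against 29.7% of all. A match is a run of letters and not a shown binding site. The 3 windows below show where the core, in capitals, lies in the pi class gene and in 2 neighbouring alpha class genes, beginning 61 bases before the start in Gstp1 (chr1:210769656-210769955, minus strand), 30 bases after it in Gsta1 (chr9:31216483-31216782, minus strand) and 17 bases before it in Gsta3 (chr9:31154739-31155038, plus strand).
Gstp1: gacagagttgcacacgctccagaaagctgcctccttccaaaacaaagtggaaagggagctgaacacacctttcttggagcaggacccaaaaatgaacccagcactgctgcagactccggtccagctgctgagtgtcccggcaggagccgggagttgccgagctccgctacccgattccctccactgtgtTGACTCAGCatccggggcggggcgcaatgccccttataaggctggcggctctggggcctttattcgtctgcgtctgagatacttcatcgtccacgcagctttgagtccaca
Gsta1: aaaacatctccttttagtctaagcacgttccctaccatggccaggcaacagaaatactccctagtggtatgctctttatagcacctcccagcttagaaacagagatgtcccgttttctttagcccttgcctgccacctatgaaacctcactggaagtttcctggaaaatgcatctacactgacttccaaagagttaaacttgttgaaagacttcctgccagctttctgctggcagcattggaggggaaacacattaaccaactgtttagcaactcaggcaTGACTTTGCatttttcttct
Gsta3: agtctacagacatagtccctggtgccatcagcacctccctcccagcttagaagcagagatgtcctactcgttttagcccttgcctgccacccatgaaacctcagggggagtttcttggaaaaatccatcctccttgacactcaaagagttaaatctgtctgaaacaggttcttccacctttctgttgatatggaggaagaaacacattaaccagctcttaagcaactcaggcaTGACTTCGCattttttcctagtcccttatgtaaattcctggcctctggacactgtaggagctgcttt

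The glucuronosyltransferases had the lowest median of the 3 classes, -0.07 over 7 probes, with 2 means above 0. The order of the class medians is not stable, since with the deposited net intensities this median was 0.0057 and that of the glutathione transferases 0.0036. Ugt1a6a (U16818), of the family that glucuronidates planar phenols, had the lowest mean of all members. Its log2 intensities were 6.63 and 7.11 in the γ-conglutin pool, against 6.93 and 7.32 in the vehicle pool. On each array the γ-conglutin value was the lower, but across arrays the pools overlapped. The ratios were -0.29 and -0.21, with a mean of -0.25 ± 0.06 or 0.84-fold. The probe was dim, with 35.7 and 113 intensity units over background in the γ-conglutin pool and 73.7 and 92.0 in the vehicle pool, and its mean ran from -0.43 with plain background subtraction to -0.21 with median centring.

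The Ugt2b enzymes conjugate steroids and bile acids. Ugt2b37 (NM_053215) had intensities of 9.95 and 10.46 in the γ-conglutin pool, against 10.38 and 10.53 in the vehicle pool. It was below 0 on both arrays, by different amounts: -0.43 and -0.07, mean -0.25 ± 0.26. Ugt2b1 had -0.20 and 0.06, and Ugt2b5 -0.13 and 0.19. Ugt2a3 (NM_028094) had 15.56 and 15.32 in the γ-conglutin pool, against 15.60 and 15.45 in the vehicle pool, with ratios of -0.04 and -0.13. Its mean of -0.09 ± 0.06 was above 0 under loess within blocks (0.02), with the deposited net intensities (0.01) and in the series matrix values (0.04). The members known outside the liver were Ugt2a1, an enzyme of the olfactory epithelium, with -0.10 and 0.05, and Ugt8a, which makes the galactosylceramide of myelin, with -0.10 and 0.23. Ugt8a had the highest mean of the class, 0.06 ± 0.23, and 0.17 with median centring. It is named a UDP galactosyltransferase and is in the class, its median and its counts by symbol only. All 7 ratios were below 0 on array 1, as were those of 29 of the 39 members and 50.7% of all probes. On array 2, 4 of the 7 were above 0, as were 24 of the 39 members and 51.2% of all probes.

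The sulfotransferases had a median of 0.0060 over 11 probes, with 6 means above 0. Sult3a1 (NM_020565), an enzyme of amine sulfation in mice, had the highest mean of all members. Its log2 intensities were 14.50 and 14.59 in the γ-conglutin pool, against 14.49 and 14.25 in the vehicle pool. Both γ-conglutin values were the higher ones, but on array 1 the gap was slight: the ratios were 0.01 and 0.34, mean 0.18 ± 0.23 or 1.13-fold, and 0.16 to 0.19 over the settings. Sult1e1, the estrogen sulfotransferase, had -0.02 and 0.09 and a mean of 0.03 ± 0.08. Sult1a1, the phenol sulfotransferase, had intensities of 10.51 and 10.28 in the γ-conglutin pool and 10.66 and 10.28 in the vehicle pool. Its ratios were -0.16 and -0.00017, with a mean of -0.08 ± 0.11.

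Sult5a1 was the member on which the arrays agreed most closely, with ratios of -0.09 and -0.09. Its intensities were 9.15 and 9.44 in the γ-conglutin pool and 9.24 and 9.52 in the vehicle pool, which overlapped across arrays. Sult1c2 had the lowest mean of the class, -0.10 ± 0.34, from intensities of 9.31 and 8.35 in the γ-conglutin pool and 9.18 and 8.69 in the vehicle pool. The arrays opposed each other, with 0.14 and -0.34. Sult1c1, known in rats for sulfating hydroxylated arylamines, had -0.0093 and 0.13, and Sult6b1 had -0.04 and 0.15. Sult1b1, which acts on thyroid hormones, had -0.12 and 0.13, and Sult1d1 had -0.25 and 0.20. Sult2b1, which sulfates cholesterol and its relatives, had 0.08 and -0.05. Sult4a1, a brain enzyme without an established substrate, had 0.07 and -0.13. The spot under this name was brighter than that of every member but Ugt2a3. Its log2 intensities were 15.28 and 15.00 in the γ-conglutin pool and 15.21 and 15.13 in the vehicle pool.

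**Figure D2:**
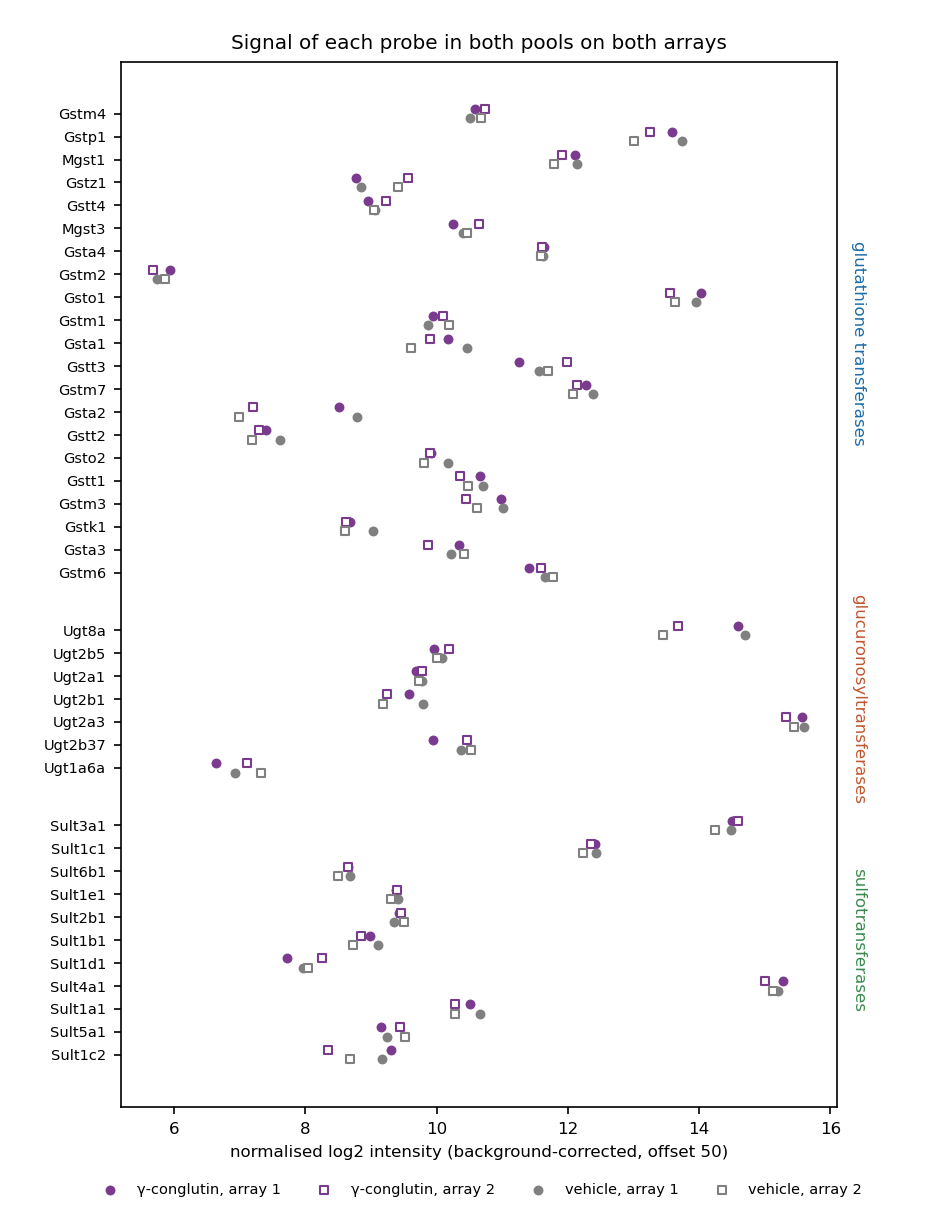
Normalised log2 intensity (x axis) of each probe in the γ-conglutin pool (purple) and the vehicle pool (grey), on array 1 (filled circles) and array 2 (open squares). Array 1 and array 2 differ widely for some probes, as for Gsta2, whose mean intensity is higher on array 1 by 1.55.

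Intensities also differed between the slides. The mean log2 intensity of both channels differed between array 1 and array 2 with an SD of 0.42 across members, against 0.46 across library spots. It differed by at least 1 for 2 members, Gsta2 (1.55) and Ugt8a (1.08), against 3.13% of library spots. Gsta2 had 8.52 and 7.20 in the γ-conglutin pool and 8.78 and 6.99 in the vehicle pool, so both its pools were higher on array 1.

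**Figure D3:**
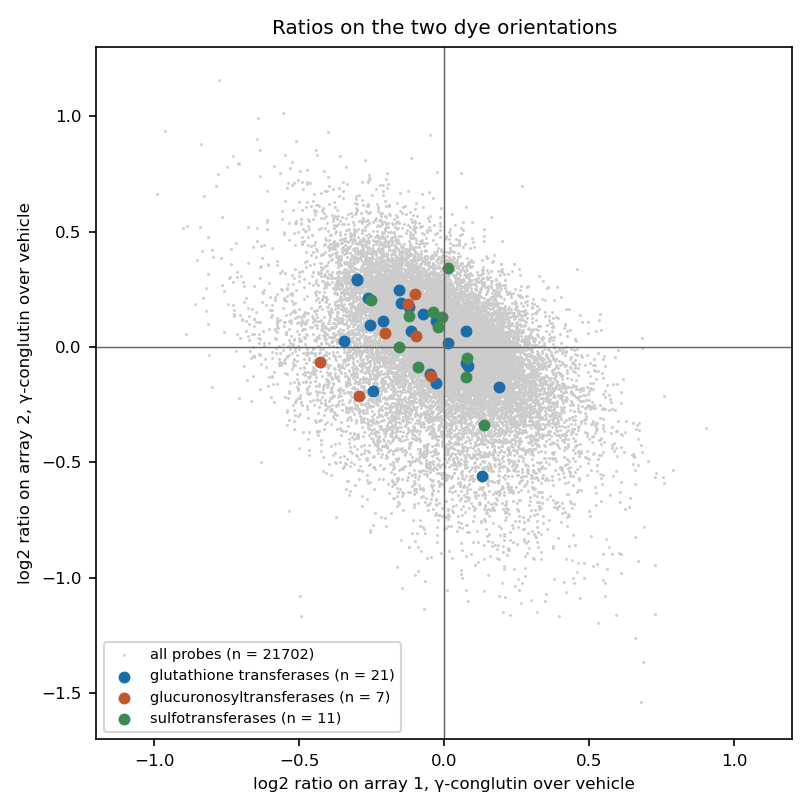
Log2 ratio of γ-conglutin over vehicle on array 1 (x axis) against array 2 (y axis), for all 21702 probes in grey and the members in colour by class. Most members lie in the upper left quadrant, where Alexa555 is the brighter dye on both arrays.

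For most members the ratios of the arrays had opposite signs, as for most probes of the whole array. Across the 39 members, which share the same 2 slides, the arrays correlated at -0.40 (Pearson's r) and -0.39 (Spearman's rho), given as a description. Pearson's r over the members ran from -0.75 with plain background subtraction to -0.17 with loess within blocks. Over all probes it ran from -0.68 with median centring to -0.25 with net intensities. The -0.75 includes Gstm2, a spot below the 95th percentile of empty spots, whose ratios in that setting were 1.76 and -1.42. Without Gstm2 the members' r was -0.37 in the main setting, and it was not computed for plain subtraction. Alexa555 was the brighter dye on both arrays for 21 members and Alexa647 for 7, where 34.6% and 32.7% of all probes showed these patterns. On array 1, 29 members were below 0 (50.7% of all probes), and on array 2, 24 were above 0 (51.2%). The median ratio of the members was therefore -0.10 on array 1 and 0.07 on array 2, and -0.0031 and 0.0063 over all probes. No member had a dye difference of 1.5-fold on both arrays, against 0.166% of all probes, 0.0875% with Alexa647 and 0.0783% with Alexa555 brighter. At 0.32 on both arrays the members' count was also 0, against 3.42% of all probes, 1.83% with Alexa647 and 1.59% with Alexa555 brighter. With median centring it was 4 (Sult4a1, Ugt2a3, Gstm2 and Gsta1), and the share of all probes at 0.32 is not given here for that setting. At 1.5-fold, median centring gave 1 member (Sult4a1) and 530 probes in all, against 0 members and 36 probes with loess. The largest dye difference was that of Gsta3, with Alexa647 brighter by 0.34 on the log2 scale. Whether sequence, label, position or an exchange of the pools on 1 array sets these differences was not tested. With 2 arrays, such an exchange and a dye effect cannot be told apart.

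Genes that supply, control or follow conjugation were listed beside the members, and 36 of the 39 listed were measured. Where such a gene had several probes, only the brightest was read, and another probe of the gene may give another ratio. None was higher or lower by 1.5-fold on both arrays, and the list median was -0.01. At 0.32 on both arrays none passed either, although Abcg2, an efflux transporter of sulfate conjugates, had the lowest mean, -0.37 ± 0.15, from -0.47 and -0.27. The highest mean was that of Gclm, a subunit of the enzyme that limits glutathione synthesis, at 0.23 ± 0.22. Of the 36 means, 16 were above 0 and 20 below, where 53% of all probes were above 0. The same sign on both arrays was seen in 12 genes (33.3%), 7 above 0 and 5 below, against 32.7% of all probes. Besides Abcg2 and Gclm, some genes are named for their roles, after their values were seen. They include the largest means among genes with the same sign on both arrays, so they do not stand for the whole list. Tpmt, which methylates thiopurine drugs, had -0.26 and -0.34, Gss, the glutathione synthase, 0.15 and 0.15, and Arnt, the partner of the Ah receptor, 0.08 and 0.33. Ugdh, which makes UDP-glucuronate, was below 0 on both arrays, with -0.27 and -0.22. Gclc, the catalytic partner of Gclm, had -0.22 ± 0.28. The PAPS synthases Papss1 and Papss2 had means of 0.0074 ± 0.43 and -0.02 ± 0.32. The regulator gene Nfe2l2, which encodes Nrf2, had -0.04 ± 0.25, and Nqo1, a textbook Nrf2 target, 0.11 ± 0.10. The sulfotransferases of the Golgi, which act on carbohydrates and proteins and are not members, had a median of -0.02 over 27 probes and 0 past 1.5-fold on both arrays, as had the cytosolic family.

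Several members lie next to each other in the rat annotation, with no other protein-coding gene between them, and 12 such pairs were found. The mu genes Gstm3, Gstm2, Gstm1 and Gstm4 form 1 such row and the theta genes Gstt4, Gstt1 and Gstt3 another. On rat chromosome 14, Sult1e1, Sult1d1 and Sult1b1 run into Ugt2a1 and Ugt2a3, and the means along this row were 0.03, -0.02, 0.0060, -0.02 and -0.09. Members of 1 family are close in sequence, so a probe may take up cDNA of a relative, and the ratio of a probe is not proof of which relative gave it.

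**Figure D4:**
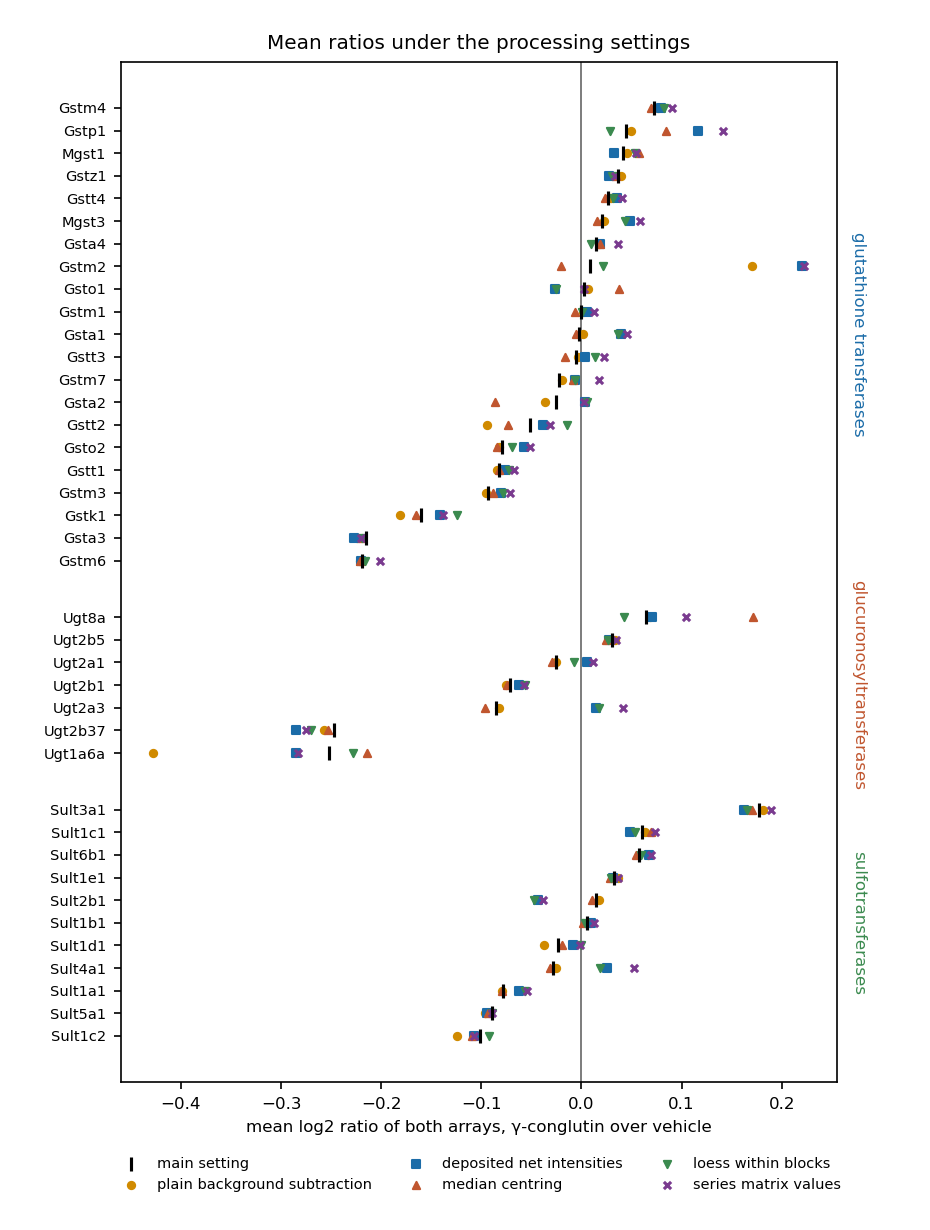
Mean log2 ratio over both arrays, γ-conglutin over vehicle (x axis), for each member under 6 settings of background correction and normalization, shown by symbol and colour. The sign is kept in 28 of 39 members, and the settings spread most for the dim probes of Gstm2 and Ugt1a6a.

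Across the 6 settings the sign of the mean was kept in 28 of the 39 members: 14 of 21 glutathione transferases, 5 of 7 glucuronosyltransferases and 9 of 11 sulfotransferases. Of the 11 members with the same sign on both arrays, 4 had it under all 6 settings: Gstm6, Gstt1, Ugt1a6a and Sult5a1. The other 7 had opposite signs on the arrays in 1 or more settings, Sult1a1 in 5, Gsta4 and Gstm4 in 4, Gstm3 and Ugt2a3 in 2, and Ugt2b37 and Sult3a1 with median centring alone.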

How the data were processed

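Liver cDNA of both pools was measured on 2 two-colour arrays of mouse design with exchanged dyes. Per the file headers, the authors deposited for each spot the mean raw intensity, mean background intensity with its SD, and net intensity per dye, and the ratio of net intensities, Alexa555 over Alexa647. The series matrix holds the log2 of that deposited ratio, as a comparison of the values showed. Image software and the source of the net intensities are not given in the sources used here.

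Library spots numbered 21766, beside 231 Gapdh control and 1235 empty spots. Background was corrected by normexp (offset 50) and each array normalized by global loess with control and empty spots at weight 0 (limma 3.58.1, R 4.3.3). Signs were turned so that a ratio is γ-conglutin over vehicle. The mean log2 intensities of both channels were set to 1 distribution across arrays (Aquantile). Intensities per pool were then rebuilt from this mean and the ratio within the array. Spots of 1 probe were averaged. Marker genes and other conjugation genes were each read from the brightest probe of the symbol, while the Golgi list kept every probe. A probe was kept (21702, with 59 removed) if, on each array, 1 or both channels exceeded background by 2 SD. Median raw library intensities were 1179 to 1683, over backgrounds of 37.5 to 48.3, and the number of arrays limits the precision. No member was saturated (at least 65000).

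With 1 pool per treatment no test was made. By a written rule every member could be named, with values per array for the highest and lowest of each class, for those of the same sign on both arrays and for textbook enzymes, and of other conjugation genes the highest and lowest. Members and lists were chosen with earlier results of these data known, and the Golgi comparison and promoter search were added later. The normalization was tested on known changes put into the measured γ-conglutin signal of bright library spots, and dim probes were not covered. Alternatives covered background, normalization, filter, fold threshold and each array alone. Summaries used Python 3.11.15.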

Additional observations from a re-analysis of the deposited data

Results flagged for a closer look

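A group of 3 probes annotated as enzymes of these families carries no gene symbol, so the symbol rule left them out of every comparison above. All had a signal above the 95th percentile of empty spots in both channels of both arrays, which is why they are listed. The probe of AA543920, described as similar to a mu class glutathione transferase, had log2 ratios (γ-conglutin over vehicle) of -0.04 and 0.15, a mean of 0.057 ± 0.13. The probe of S82156, described as a sperm antigen fused to a glutathione transferase, had 0.03 and -0.23 (mean -0.10 ± 0.18). The probe of NM_009286, described as a hydroxysteroid sulfotransferase, was below 0 on both arrays, with -0.03 and -0.20 and a mean of -0.11 ± 0.12.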

How the results depend on the processing

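The counts of members higher or lower by 1.5-fold on both arrays were 0 under every alternative run. On array 1 or array 2 alone they were 0 in the main setting. In other settings some members passed on an array alone, as Gstm2 with 1.76 and -1.42 under plain subtraction and Ugt2a3 with -0.78 on array 2 under median centring. A dye ratio of 1.5-fold on both arrays was found for 0 members in the main setting and for 1 with plain background subtraction, the deposited net intensities and the series matrix values, each time Gstm2, and for 1 sulfotransferase, Sult4a1, with median centring. Over all probes, the 1.5-fold dye count was 36 of 21702 in the main setting and 530 of 21702 with median centring. It was 164 with plain subtraction, 140 with net intensities and 137 in the series matrix values, each of 21697. At 0.32 a dye ratio was found for 4 members with median centring and for 1 (Gstm2) with plain subtraction, net intensities and the series matrix values. At 0.32 on both arrays, plain subtraction put 1 member lower, Ugt1a6a. Shares of all probes at 0.32 are given here for the main setting only, so the counts at 0.32 in other settings stand without them. Sulfotransferases with the same sign on both arrays numbered 3 in the main setting (Sult1a1, Sult3a1 and Sult5a1). With loess within blocks they numbered 5, without Sult1a1: Sult3a1, Sult5a1, Sult1c1, Sult2b1 and Sult1c2. The count was 2 with plain subtraction and with median centring, and 4 with net intensities and in the series matrix values. The cause was not tested. The glucuronosyltransferase median was 0.0057 with net intensities and 0.012 in the series matrix values, against -0.071. The median of all members was -0.0052 and lay between -0.02 and 0.01 over the settings with both arrays. On array 1 or array 2 alone it was -0.10 and 0.07. The class medians on array 1 or array 2 alone were -0.11 and 0.07 for glutathione transferases, -0.13 and 0.05 for glucuronosyltransferases and -0.022 and 0.087 for sulfotransferases. No paired analysis was possible because both pools share every array, so that the ratio is itself the paired value, and the replicate numbers mark arrays of the same RNA. Averaging the probes of a gene was not run, since each member had 1 probe. Signal over background limits Gstm2, Ugt1a6a, Gsta2 and Gstt2.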
